A study of Homo sapiens with 9 samples.

Results

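The expression of 10 chemokine genes was followed in PC-3 cells, an established cell line from a bone metastasis of a prostate carcinoma that grows without androgen. The genes were chosen by name and make up 10 of the 60617 genes in the files: CXCL1, CXCL2, CXCL8 and CCL20, whose transcription is classically driven by NF-kB, CXCL9, CXCL10 and CXCL11, which are classically driven by interferon, and CCL2, CCL5 and CXCL16, which answer to both inputs. Of these, 8 had enough counts to be tested, and CXCL9 and CCL2 did not. There were 3 RNA-seq libraries per group: controls, cells exposed to decitabine at 1 µM, a nucleoside analogue that traps DNA methyltransferases, and cells under the combination treatment of decitabine at 1 µM with S-adenosylmethionine (SAM), the methyl donor of these enzymes, at 200 µM. According to the study's methods, controls received the vehicle. The labels give 5 days of treatment with a change of medium every other day, and the doses are those of the methods. All groups are a single cell line without immune cells, a SAM-only group was not analysed here, and the labels do not say whether the replicates were separate cultures, so p-values may measure technical spread only.

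Chemokines are small secreted proteins that guide leukocytes through G protein-coupled receptors. CXCL9, CXCL10 and CXCL11 bind CXCR3 and attract activated T cells and NK cells, and their genes are switched on when STAT and interferon regulatory factors occupy interferon response elements. CXCL1, CXCL2 and CXCL8 bind CXCR2 and attract neutrophils, and their genes, like that of the CCR6 ligand CCL20, are switched on when NF-kB dimers bind next to the transcription start. PC-3 cells are known as a line with constitutive NF-kB activity and CXCL8 secretion.

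Libraries held between 21934307 and 22489684 counts. The TMM scaling factors were 0.895 to 0.902 in the controls and 1.033 to 1.078 in the treated libraries, and without TMM, using library size alone, the median change over the genes tested became 0.28 in place of 0.03 (log2) for decitabine and 0.27 in place of 0.05 for the combination treatment. Within the combination group, replicate 3 stood apart. It had 3291 counts of STAT2, a transcription factor of the interferon response, against 1537 and 1620 in the other libraries of that group, and values without it are given where they change a call or a fold. The 5 epithelial markers summed to between 727 and 956 CPM in every library, while 13 leukocyte markers together lay between 0.596 and 1.1 CPM in the controls, 3.85 and 4.85 CPM with decitabine and 3.13 and 3.87 CPM with the combination treatment. The 5 endothelial markers summed to between 26.2 and 28.6 CPM in the controls, 43.2 and 62.5 CPM with decitabine and 52.2 and 60.7 CPM with the combination treatment. CD2, MS4A1 and NKG7 were at 0 in all libraries, and the part of the other leukocyte markers and of the endothelial markers in the results was not tested.

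The promoters of the genes are shown first, because they carry the motifs of both inputs. RefSeq (GRCh38.p14) promoter windows were matched for 7 of the 10 genes, and those of CCL2, CCL5 and CXCL16 were not in the table. In the 5 windows printed here, of 250 bases that end 1 base before the RefSeq transcription start, capitals mark the core of the interferon response element, which is a pair of GAAA words with any 2 bases between them, an exact NF-kB site, which is the stretch in capitals of the CXCL8 window, and the NF-kB consensus, all searched on both strands. CXCL10 (minus strand, chr4:76023498-76023747) has all of these motifs, CXCL11 (minus strand, chr4:76036071-76036320) and CXCL8 (plus strand, chr4:73740319-73740568) are its contrast within and outside the interferon-driven group, CXCL1 (plus strand, chr4:73869143-73869392) stands also for its near copy CXCL2, and CCL20 (plus strand, chr2:227813592-227813841) is the member with the largest change.
CXCL10: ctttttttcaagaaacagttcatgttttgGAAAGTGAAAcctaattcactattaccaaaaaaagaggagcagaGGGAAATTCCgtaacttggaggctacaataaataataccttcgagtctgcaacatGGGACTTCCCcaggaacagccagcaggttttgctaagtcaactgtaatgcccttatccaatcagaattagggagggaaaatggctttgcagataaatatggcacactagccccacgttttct
CXCL11: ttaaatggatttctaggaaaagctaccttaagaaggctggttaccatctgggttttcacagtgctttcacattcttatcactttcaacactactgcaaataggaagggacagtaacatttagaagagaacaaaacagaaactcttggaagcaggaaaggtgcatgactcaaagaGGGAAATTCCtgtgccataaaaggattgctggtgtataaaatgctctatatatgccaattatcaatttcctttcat
CXCL8: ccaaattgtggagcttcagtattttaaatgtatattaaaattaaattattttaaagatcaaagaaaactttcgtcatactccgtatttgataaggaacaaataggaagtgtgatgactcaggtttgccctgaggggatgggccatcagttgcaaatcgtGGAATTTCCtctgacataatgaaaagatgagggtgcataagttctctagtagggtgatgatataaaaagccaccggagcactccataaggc
CXCL1: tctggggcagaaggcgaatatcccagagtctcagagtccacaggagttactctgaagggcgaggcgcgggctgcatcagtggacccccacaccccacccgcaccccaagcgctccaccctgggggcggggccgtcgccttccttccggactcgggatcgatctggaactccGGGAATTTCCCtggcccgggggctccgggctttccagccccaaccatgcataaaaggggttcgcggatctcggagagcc
CCL20: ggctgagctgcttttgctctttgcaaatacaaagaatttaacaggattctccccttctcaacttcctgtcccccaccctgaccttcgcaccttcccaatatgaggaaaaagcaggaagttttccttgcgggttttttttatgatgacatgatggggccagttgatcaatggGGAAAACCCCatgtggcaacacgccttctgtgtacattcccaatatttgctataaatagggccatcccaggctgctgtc

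The interferon response element core lay from -221 to -212 in the CXCL10 window and from -171 to -162 in the CXCL9 window, and in no other of the 7. It was present in 3.02% of the 35116 RefSeq promoter windows of the same length. The exact NF-kB site was present in 5 of the 7 windows, among them the interferon-driven genes CXCL10, starting at -176, and CXCL11, starting at -75. It started at -78 in CXCL1, at -77 in CXCL2 and at -91 in CXCL8, and 0.413% of all windows held it. The site is described by the CXCL8 window, so its match there is given, and CXCL1 and CXCL2 are near copies. The 5 matches are therefore not independent, and their number was not tested against the share of all windows. The NF-kB consensus, which contains the exact site when a further G precedes it, was matched in CXCL10, CXCL11, CXCL1, CXCL2 and, starting at -79, in CCL20, and in 9.96% of all windows. The windows also differed in CpG sites, the bases that DNA methyltransferases modify. CXCL1 and CXCL2 had 18 and 20 CpG sites, whereas CXCL9 and CXCL11 had 0, CXCL10 and CCL20 had 3 and CXCL8 had 4, beside a median of 11 over all windows. CXCL1 and CXCL2 shared a run of 42 bases from -57 on. Methylation of these windows was not measured in the files, and a match to a motif is not evidence of binding.

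**Figure D1:**
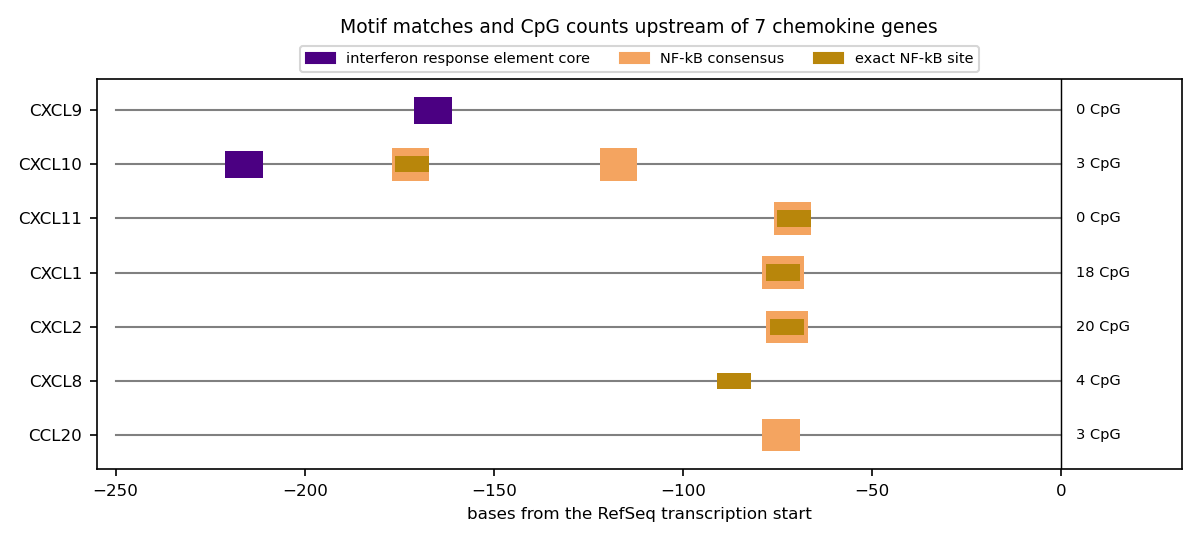
Motif matches in the 250 bases before the RefSeq transcription start of 7 chemokine genes, with the distance from the start in bases on the x axis and the number of CpG sites at the right. The interferon response element core was found in CXCL9 and CXCL10, and an exact NF-kB site in CXCL10, CXCL11, CXCL1, CXCL2 and CXCL8.

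In the controls, CXCL8 was the most abundant of the chemokines per length of transcript, with 17.1 CPM per kb of exon, followed by CXCL16 with 3.35, CXCL1 with 1.67 and CXCL2 with 1.16 CPM per kb. CXCL1 and CXCL2 overlapped between libraries, and the other neighbours among these genes did not. The remaining 6 genes were below 0.1 CPM per kb. In decitabine-treated cells the order was CXCL8 (38.3 CPM per kb), CXCL16 (14.2), CXCL1 (13.9), CCL20 (9.73) and CXCL2 (2.41), followed by CXCL11, CXCL10 and CCL5 with 0.863, 0.851 and 0.785 CPM per kb. CXCL16 overlapped with CXCL1, CXCL1 with CCL20, CXCL11 with CXCL10 and CXCL10 with CCL5, so their order was not resolved. With the combination treatment, CXCL8, CXCL16, CXCL1, CCL20 and CXCL2 kept this order, with 41.3, 16.0, 11.3, 6.75 and 1.32 CPM per kb, and CCL5, CXCL11 and CXCL10 followed with 0.305, 0.225 and 0.0979 CPM per kb. Here CXCL1 overlapped with CCL20, CCL5 with CXCL11 and CXCL11 with CXCL10. The NF-kB-driven genes thus made up most of the RNA of these 10 genes per length in every group, as the plot of CPM by library shows.

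**Figure D2:**
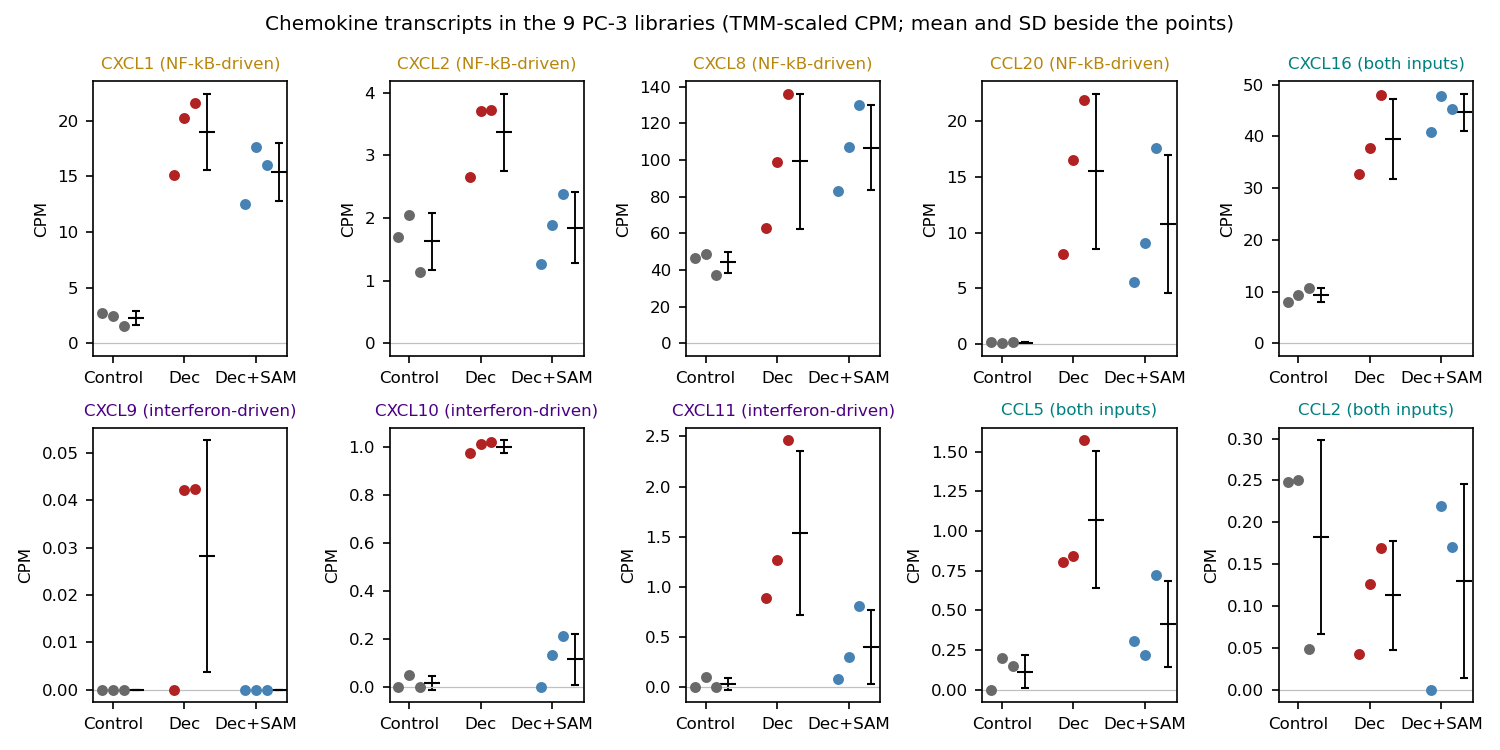
TMM-scaled CPM (y axis, linear, a separate scale per gene) of the 10 chemokines in the 3 control, 3 decitabine (Dec) and 3 combination (Dec+SAM) libraries, with 1 point per library and the mean and SD beside the points. CXCL10 lay between 0.972 and 1.02 CPM with decitabine and between 0 and 0.213 CPM with the combination treatment, whereas CXCL8 overlapped between the treatments.

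Among the NF-kB-driven chemokines, all 4 were upregulated by decitabine. CXCL8 (ENSG00000169429, chromosome 4, 73740519 to 73743716), the neutrophil attractant also known as IL-8, had 46.4, 48.7 and 37.5 CPM in the controls, 62.7, 99.0 and 136 CPM with decitabine and 83.3, 107 and 130 CPM with the combination treatment. All treated libraries were above all controls, and the treated groups overlapped. The log2 fold change of CXCL8 was 1.16 with decitabine (standard error 0.30, adjusted p = 0.012, like all adjusted p-values here from the quasi-likelihood test of edgeR) and 1.27 with the combination treatment (standard error 0.30, adjusted p = 0.008). Across all genes tested, 36.3% were upregulated with decitabine and 35.9% with the combination treatment, and the groups did not overlap for 72.9% and 71.6%, so a call in either comparison was common.
CXCL1 (ENSG00000163739, chromosome 4, 73869393 to 73871308), a further ligand of CXCR2, had 2.73, 2.50 and 1.58 CPM in the controls. It had 15.1, 20.2 and 21.6 CPM with decitabine and 12.5, 17.6 and 16.0 CPM with the combination treatment. Every treated library was several-fold above every control, with log2 fold changes of 3.06 (standard error 0.21, adjusted p = 4.5e-08) and 2.76 (standard error 0.21, adjusted p = 1.3e-07).
CXCL2 (ENSG00000081041, chromosome 4, 74097040 to 74099196), encoded next to CXCL3 and close in sequence to CXCL1, behaved differently between the treatments. It had 34, 41 and 23 counts in the controls, 63, 88 and 88 counts with decitabine and 29, 43 and 56 counts with the combination treatment. The decitabine libraries were above all others, and the combination libraries overlapped with the controls. CXCL2 rose by a log2 fold change of 1.05 with decitabine (standard error 0.27, adjusted p = 0.003), and its value with the combination treatment was 0.19 (95% interval -0.42 to 0.79, adjusted p = 0.58). Of the 31-base words in CXCL2 transcripts, 23.6% also occurred in relatives such as CXCL3 and CXCL1, and for CXCL1 this share was 13.7%, so reads can be assigned among them with some uncertainty.
CCL20 (ENSG00000115009, chromosome 2, 227805739 to 227817564), the ligand of CCR6 on memory T cells and immature dendritic cells, had 3, 1 and 3 counts in the controls. It had 192, 392 and 516 counts with decitabine and 128, 206 and 414 counts with the combination treatment. The gene went from near the limit of detection to the fourth place per length. Its ratio to the controls was 134 with decitabine (exact 95% interval 64.7 to 333, counting error only) and 93.3 with the combination treatment (45.1 to 233), with adjusted p-values of 0.00039 and 0.00074. CCL20 passed the filter on low counts through its treated libraries, so a difference from the controls was a condition of its being tested.

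The interferon-driven chemokines were at or near 0 in the controls. CXCL10 and CXCL11 were upregulated by decitabine and had lower means under the combination treatment, and CXCL9 was not tested. CXCL10 (ENSG00000169245, chromosome 4, 76021118 to 76023497), the classical interferon-induced ligand of CXCR3, had 0, 1 and 0 counts in the controls, 23, 24 and 24 counts with decitabine and 0, 3 and 5 counts with the combination treatment. The decitabine libraries were nearly alike and above all others, and the combination libraries overlapped with the controls. The ratio of decitabine to control was 60.4 (exact 95% interval 10.5 to 2420) with an adjusted p of 2.3e-05, and that of the combination treatment to control was 6.98 (0.936 to 310) with an adjusted p of 0.079. The latter was called only without combination replicate 1 (adjusted p = 0.016), and adjusted p-values over all alternatives run lay between 0.016 and 0.29. Without control replicate 2, which held the only control count, the fitted log2 fold change with decitabine was 7.5 in place of 5.5, and it then depends on the prior count.
CXCL11 (ENSG00000169248, chromosome 4, 76033682 to 76041415), the CXCR3 ligand of highest affinity, had 0, 2 and 0 counts in the controls, 21, 30 and 58 counts with decitabine and 2, 7 and 19 counts with the combination treatment. The decitabine libraries were above the others, although combination replicate 3 with 19 counts came close to decitabine replicate 1. The ratio to the controls was 46.4 with decitabine (12.5 to 388, adjusted p = 0.0004) and 12.2 with the combination treatment (3.08 to 106, adjusted p = 0.026). The second call, a log2 fold change of 3.4, was lost without combination replicate 3 (2.38, adjusted p = 0.1) and without control replicate 1 or 3 (2.88 in each case, adjusted p = 0.083 and 0.084). Without control replicate 2, the only control with counts, the value with decitabine was 8.12 in place of 5.31.
CXCL9 (ENSG00000138755, chromosome 4, 76001275 to 76007509), the CXCR3 ligand most dependent on interferon gamma, had 0, 1 and 1 counts with decitabine and none in the other 6 libraries. It was not detectable at this depth, at which 3 counts correspond to between 0.127 and 0.15 CPM. CXCL10 and CXCL11, and with them CCL5, did not pass the filter in a fit of the controls and the combination treatment alone. They were tested only through the decitabine libraries, in which they are high. CXCL10 and CXCL11 also lie opposite to ART3, which had 0, 1 and 0 counts in the controls, 9, 8 and 13 counts with decitabine and 3, 7 and 10 counts with the combination treatment, and whether the counting used strand is not given in the sources used here.

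The chemokines under both inputs divided. CXCL16 (ENSG00000161921, chromosome 17, 4733533 to 4739928), a membrane-anchored chemokine that binds CXCR6, had 7.99, 9.41 and 10.7 CPM in the controls, 32.8, 37.8 and 47.9 CPM with decitabine and 40.8, 47.8 and 45.3 CPM with the combination treatment. Treated libraries were above all controls and overlapped with each other. The log2 fold change was 2.08 with decitabine (standard error 0.14, adjusted p = 4.8e-08) and 2.25 with the combination treatment (standard error 0.14, adjusted p = 2.3e-08). CXCL16 overlaps with MED11 and ZMYND15 on the opposite strand.
CCL5 (ENSG00000271503, chromosome 17, 35871491 to 35880793), known as RANTES and an attractant of T cells and monocytes, had 0, 4 and 3 counts in the controls, 19, 20 and 37 counts with decitabine and 7, 5 and 17 counts with the combination treatment. The 3 groups did not overlap. The ratio to the controls was 9.24 with decitabine (4.27 to 23.8, adjusted p = 0.00051) and 3.62 with the combination treatment (1.55 to 9.78, adjusted p = 0.042). The latter call, a log2 fold change of 1.8, was lost with a smaller value without combination replicate 3 (1.14, adjusted p = 0.22) and control replicate 1 (1.23, adjusted p = 0.14). It was lost with a value about as large or larger without control replicate 3 (2.0, adjusted p = 0.071) and decitabine replicate 2 (1.8, adjusted p = 0.051). Of the 31-base words of CCL5, 25.2% also occurred in transcripts of other genes, so its few counts are uncertain.
CCL2 (ENSG00000108691, chromosome 17, 34255274 to 34257208), the monocyte attractant also called MCP-1, had 5, 5 and 1 counts in the controls, 1, 3 and 4 counts with decitabine and 0, 5 and 4 counts with the combination treatment. All groups overlapped. The ratio to the controls was 0.619 with decitabine (0.216 to 1.69) and 0.714 with the combination treatment (0.262 to 1.90), so no difference was detectable at this depth.

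The combination treatment was then set against decitabine to compare the groups of chemokines directly. CXCL10 was downregulated to 11.5% of its level with decitabine, a log2 fold change of -3.05 (95% interval -4.21 to -1.90, adjusted p = 0.0031). The call was made in each of the 9 fits that left out 1 library, in which the value lay between -3.82 and -2.50. CXCL2 was the other chemokine called, at 54.8% of its level with decitabine and a log2 fold change of -0.86 (-1.42 to -0.31, adjusted p = 0.038). That call was lost without decitabine replicate 2 (-0.79) or 3 (-0.79) and without combination replicate 1 (-0.66) or 2 (-0.88). Of the 8 chemokines tested, 2 were downregulated, beside 8.02% of all genes tested, and 0 were upregulated, beside 7.67%. CXCL10, like CXCL11 and CCL5, was tested only because it was high with decitabine, so nothing is read from this count. In the fit without a filter CXCL10 was called as well (adjusted p = 7e-07). That fit uses the same counts and gave far smaller adjusted p-values for some other chemokines too, so it is no separate support. At an unadjusted p under 0.05, the edgeR test gave 4 lower and 0 higher, voom and limma gave 3 and 0 after adjustment, and DESeq2 gave 1 and 0.
CXCL11 was at 26.1% of its level with decitabine, with a log2 fold change of -1.91 (-3.22 to -0.60) and an adjusted p of 0.051. Without combination replicate 3 it was -2.93 (adjusted p = 0.0064). Without combination replicate 1 or 2 it was -1.45 or -1.75 (adjusted p = 0.13 and 0.18). CXCL11 was called in 2 of the 9 fits that left out 1 library, and over all alternatives the adjusted p lay between 2.1e-05 and 0.18. CCL5 was at 38.9%, with a log2 fold change of -1.34 (-2.39 to -0.30, adjusted p = 0.076). Without combination replicate 3 it was -2.0 (adjusted p = 0.019), and this was the only 1 of the 9 leave-out fits that called CCL5. Over all alternatives its adjusted p lay between 0.012 and 0.27. Combination replicate 3 was set apart by its STAT2 counts, so the values of CXCL11 and CCL5 without it are no separate support. Neither gene overlapped between the treatments, as was the case for 34.0% of all genes tested.
The remaining NF-kB-driven chemokines and CXCL16 were not called, with intervals that include 0. CXCL1 was at 81.0% of its level with decitabine (log2 fold change -0.30, 95% interval -0.67 to 0.06, adjusted p = 0.25) and CCL20 at 69.4% (-0.53, -1.67 to 0.62, adjusted p = 0.51). CXCL8 was at 108% (0.11, -0.59 to 0.81, adjusted p = 0.84), and CXCL16 of the genes under both inputs was at 113% (0.18, -0.10 to 0.45, adjusted p = 0.38). The interval of CXCL10 lay below those of CXCL8, CXCL1, CCL20, CXCL2 and CXCL16, as the plot of fitted changes shows. That of CXCL11 lay below those of CXCL8 and CXCL16 only, and its upper end (-0.60) nearly touched the lower end of CXCL8 (-0.59). CXCL10 and CXCL11 were tested only because they were high with decitabine. Low values here were therefore favoured in advance, and nothing is read from the order of the intervals. The difference between the groups of chemokines was not tested, since the groups were formed with earlier results known.

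**Figure D3:**
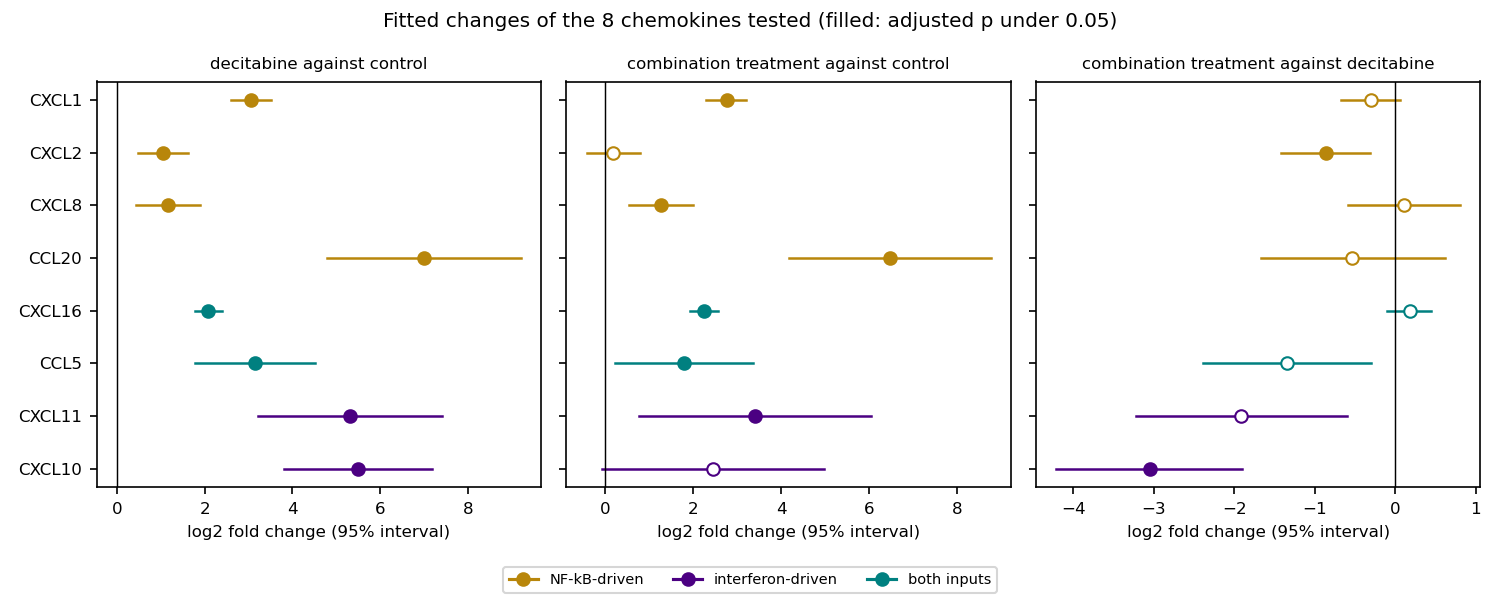
Log2 fold changes (x axis) of the 8 chemokines tested in the 3 comparisons, with pointwise 95% intervals from edgeR's quasi-likelihood fit and filled points for an adjusted p under 0.05. Between the treatments CXCL10 (-3.05) and CXCL2 (-0.86) were called, and CXCL8 and CXCL16 lay at 0.11 and 0.18.

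The proportion between the groups was also compared within each library, where scaling plays no part. The counts of CXCL9, CXCL10 and CXCL11 made up 2.06%, 1.64% and 1.89% of the summed counts of these genes and the 4 NF-kB-driven genes in the decitabine libraries. With the combination treatment the share was 0.0849%, 0.323% and 0.613%, and in the controls it was 0%, 0.281% and 0%. The decitabine libraries were above all others, and combination and control libraries overlapped. At the same time, the summed counts of the NF-kB-driven genes overlapped between the treatments, with 2093, 3307 and 4313 counts with decitabine and 2355, 3090 and 3892 with the combination treatment. CXCL8 made up between 70.8% and 92.9% of these sums. Without it they were 611, 960 and 1113 counts with decitabine and 443, 650 and 845 with the combination treatment, which overlapped as well, although CXCL2 by itself did not. In bulk RNA, fewer cells with a transcript and less RNA per cell cannot be told apart.

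**Figure D4:**
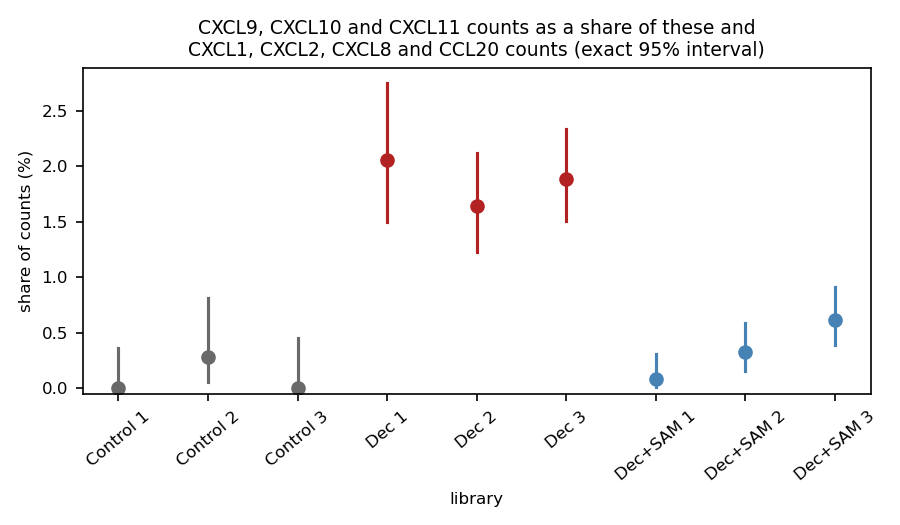
Share of CXCL9, CXCL10 and CXCL11 in the summed counts of these genes and CXCL1, CXCL2, CXCL8 and CCL20 (y axis, percent) for each library (x axis), with exact 95% binomial intervals that cover counting error only. The decitabine libraries lay between 1.64% and 2.06% and the combination libraries between 0.0849% and 0.613%.

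Except for CCL20, the NF-kB- and interferon-driven genes lie on chromosome 4 in separate neighbourhoods, a stretch from CXCL8 to CXCL2 and the stretch of CXCL9, CXCL10 and CXCL11. In the first, genes of the same family that are not among the 10 moved as well. CXCL5 had 1, 0 and 0 counts in the controls, 183, 297 and 352 counts with decitabine and 197, 263 and 334 counts with the combination treatment. CXCL3 rose by a log2 fold change of 1.71 with decitabine (adjusted p = 1.2e-06) and CXCL6 by 1.92 with the combination treatment (adjusted p = 1.8e-06). Of 34 further chemokines, 17 had no counts in any library and 6 were tested. Of the 6, 5 were upregulated with each treatment, beside 36.3% and 35.9% of all genes tested, and CXCL5 was tested only through its treated libraries. Between the treatments, edgeR called 0 of the 6 (2 at an unadjusted p under 0.05, and 1 with voom and limma and 0 with DESeq2 after adjustment), with values of -0.03 for CXCL5, -0.42 for CXCL3 and 0.23 for CXCL6.

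**Figure D5:**
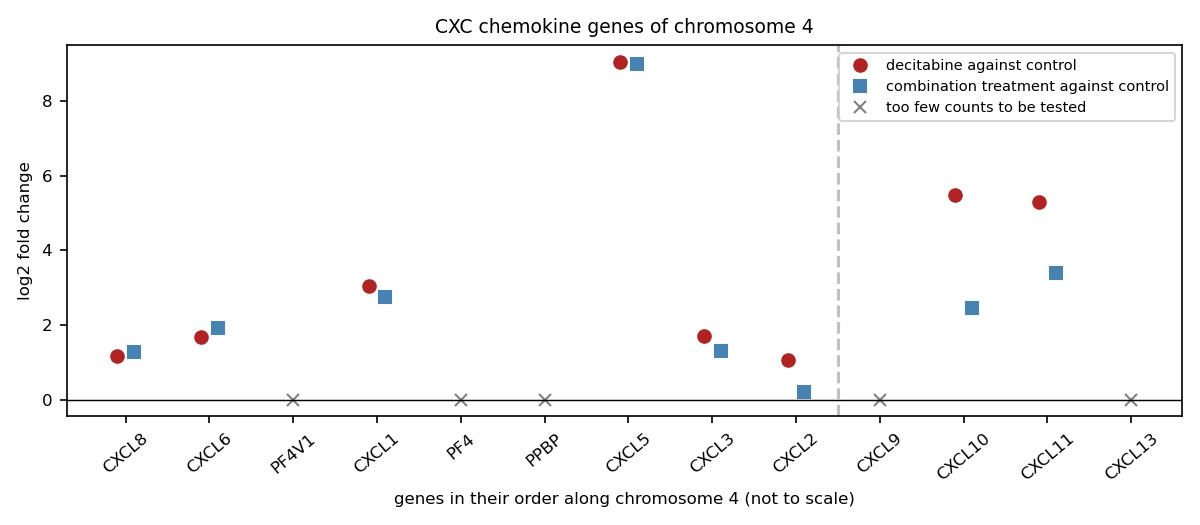
Log2 fold changes against the controls (y axis) of the CXC chemokine genes in their order along chromosome 4 (x axis, not to scale), with circles for decitabine, squares for the combination treatment and crosses at 0 for genes with too few counts to be tested. A dashed line separates the stretch from CXCL8 to CXCL2 from that of CXCL9 to CXCL13, and the pairs of points lie furthest apart at CXCL10 (5.50 and 2.45) and CXCL11 (5.31 and 3.4).

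The genes that relay the inputs were described beside the chemokines. Of 19 genes of the interferon relay, from the ligands to STAT and IRF factors, 15 were tested. With decitabine 9 were upregulated and 2 downregulated, beside 36.3% and 32.5% of all genes tested. With the combination treatment these numbers were 5 and 1, beside 35.9% and 31.3%, and voom and limma gave 6 and 1. Between the treatments 0 were higher and 6 lower, beside 7.67% and 8.02%, and DESeq2 as well as voom and limma gave these same numbers, as did an unadjusted p under 0.05. Without combination replicate 3, 7 were lower, in a fit that called 4063 of all genes tested in either direction in place of 2908. The change from 6 to 7 is therefore not read as a result about this list. STAT2, a factor of the type I and type III interferon responses, had 1354, 1161 and 1072 counts in the controls, 6953, 5697 and 6139 with decitabine and 1537, 1620 and 3291 with the combination treatment. The decitabine libraries were above all others, and the combination treatment differed from decitabine by a log2 fold change of -1.51 (adjusted p = 0.017). Without combination replicate 3 it was -1.94 (adjusted p = 3.3e-08). That library was set apart by its STAT2 counts, so a larger difference without it follows from the choice and is no separate support. Of the ligands, named here for their role and after their values were seen, IFNB1 had 1, 1 and 0 counts in the controls, 13, 10 and 27 with decitabine and 0, 2 and 16 with the combination treatment, and IFNG had none in any library. Between the treatments IFNB1 was at a log2 fold change of -1.42 (adjusted p = 0.25), and at -3.84 without combination replicate 3 (adjusted p = 0.0061). IFNB1 passed the filter on low counts only through treated libraries, and without combination replicate 3 only through those with decitabine alone. That replicate held most of the counts of its group, so nothing is read from the second p-value. The type III ligand IFNL1 had 1, 0 and 0 counts in the controls, 7, 10 and 22 with decitabine and 4, 4 and 3 with the combination treatment, and IFNL2 had 8, 7 and 8 counts with decitabine, 0, 3 and 5 with the combination treatment and none in the controls. Combination replicate 3 had the highest count of its group for IFNB1 and IFNL2 and the lowest for IFNL1.
Of 21 genes of the NF-kB relay, 20 were tested. With decitabine 9 were upregulated and 2 downregulated, with the combination treatment 9 and 0, and between the treatments 1 was higher and 0 lower, shares of the list to be read beside those of all genes tested (36.3% and 32.5%, 35.9% and 31.3%, 7.67% and 8.02%). Without combination replicate 3, 4 were lower between the treatments, in the fit with 4063 calls among all genes in place of 2908. Nothing is read from that rise in number. At an unadjusted p under 0.05, 2 were below the controls under the combination treatment, and between the treatments 2 were higher and 2 lower. After adjustment, DESeq2 gave 11 higher and 1 lower with decitabine and the numbers of edgeR in the other comparisons. With voom and limma, 11 were higher and 2 lower with decitabine, 9 and 1 with the combination treatment, and 0 and 1 between the treatments. TNFAIP3, the deubiquitinase A20 that is itself an NF-kB target, had 121, 75 and 97 counts in the controls, 738, 1024 and 1419 with decitabine and 710, 849 and 1337 with the combination treatment. The treated groups overlapped, and TNFAIP3 rose by log2 fold changes of 3.21 (adjusted p = 0.00016) and 3.10 (adjusted p = 0.00021). BIRC3, a ubiquitin ligase induced by NF-kB, rose by 3.78 and 2.95 (adjusted p = 0.00047 and 0.0018). Between the treatments BIRC3 was at -0.82 (adjusted p = 0.23), and at -1.36 without combination replicate 3 (adjusted p = 0.01). The gene that was higher between the treatments was the TNF receptor TNFRSF1A, by 0.25 (adjusted p = 0.048). It was below the controls with decitabine (-0.36, adjusted p = 0.0011) and not called against them with the combination treatment (-0.11, adjusted p = 0.25). Whether the relay genes take part in the changes of the chemokines was not tested.

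The signalling receptors of these chemokines had few or no counts in PC-3 cells. CXCR1, a receptor of CXCL8, and the CCL20 receptor CCR6 had 0 counts in all libraries, which allows up to 3 counts in each. CXCR2 had 1 count in combination replicates 1 and 2 and none elsewhere, and CXCR3 had between 0 and 4 counts per library. CXCR6, the receptor of CXCL16, had 0 counts in all controls, 16, 13 and 14 counts with decitabine and 7, 14 and 6 counts with the combination treatment. These receptors were named for the ligands they bind. Of the atypical receptors, ACKR3, which binds CXCL11, had 1.11 ± 0.155 CPM (SD, n = 3) in control cells, 3.79 ± 0.4 CPM with decitabine and 4.11 ± 0.611 CPM with the combination treatment (log2 fold change 1.77 and 1.88, adjusted p = 3.8e-06 and 2e-06). ACKR2, which binds inflammatory CC chemokines such as CCL2 and CCL5, had 0.43 ± 0.234, 2.09 ± 0.215 and 1.49 ± 0.182 CPM in the same order (2.26 and 1.78, adjusted p = 1.9e-05 and 0.00025). Of 23 receptors, 7 were tested, of which 6 were upregulated with each treatment, beside 36.3% and 35.9% of all genes tested. CXCR6, CCR4, ACKR2 and CCR10 among them passed the filter on low counts only through treated libraries. CCRL2, a non-signalling receptor that presents chemerin, was the receptor called between the treatments, with 345, 308 and 398 counts with decitabine, 165, 193 and 251 with the combination treatment and 290, 275 and 231 in the controls (log2 fold change between the treatments -0.75, adjusted p = 0.006). It was also the receptor downregulated with the combination treatment against control (-0.58, adjusted p = 0.0035).

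Across the 9 libraries, the pattern of CXCL10 was most like those of SKIC2 (Pearson's r of log2 CPM 0.982), HERC6 (0.982), PGM5P2 (0.980), USP18 (0.979) and CLTRN (0.978) among 15649 genes. CXCL8 was most like TMUB2 (0.993), CCDC80 (0.987), MAP7D1 (0.985), CCDC9 (0.985) and ZNF213 (0.985). Among the chemokines, CXCL10 had an r of 0.942 with CXCL11, 0.921 with CXCL2, 0.858 with CCL5, 0.726 with CXCL1, 0.722 with CCL20, 0.603 with CXCL16 and 0.574 with CXCL8. CXCL8 had one of 0.910 with CCL20, 0.908 with CXCL1, 0.905 with CXCL16, 0.796 with CXCL11, 0.717 with CCL5 and 0.610 with CXCL2. CXCL2 was closer to CXCL10 than to CXCL8 in this measure, and CXCL8 was closer to CXCL11 and CCL5 than to CXCL2. These values describe 9 libraries in 3 groups that share their controls, and they rest largely on the group means.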

How the data were processed

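RNA-seq of 9 PC-3 libraries was analysed. According to the submitters' processing notes, the authors used Trim Galore 0.6.4, kallisto 0.4.6, edgeR 3.17 and the build GRCh38.p13. The deposited values used here, estimated counts for each Ensembl gene and library, carry no normalization. The 9 deposited files of log2 CPM were not used. Of 60617 identifiers, 60357 were matched to GENCODE release 44, and positions are on GRCh38. For 8 of the 10 chemokines the estimated counts were whole numbers in every library, within 0.001. The members and gene lists were chosen with earlier results of these data known.

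Counts were rounded, filtered with filterByExpr (18532 genes left), scaled with TMM and tested with the quasi-likelihood test of edgeR 4.0.16 in R 4.3.3, in a fit of all 9 libraries with group as the only term. The threshold was 0.05 after Benjamini-Hochberg adjustment over all genes tested. The study's methods name voom and limma, used here as an alternative with limma 3.58.1. Intervals cover 95%, and those of ratios and shares of counts cover counting error only. With 3 libraries against 3, an exact permutation test cannot go below p = 0.1 and was not used.

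All 10 members were named. From other lists, the 2 largest changes in each direction were named from genes past the threshold that did not overlap and averaged 20 counts or more in some group, and others are stated as exceptions. Likeness to CXCL10 and CXCL8 was ranked by Pearson's r over log2 CPM with a prior count of 2, over genes averaging 20 counts or more.

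In 5 simulated data sets, each with 200 genes changed in either treated group, between 18081 and 18154 genes were tested. For decitabine against control the test found 95.8% of the changed genes and 4.39% of its calls were false, for the combination treatment against control these values were 95.8% and 3.91%, and for the combination treatment against decitabine they were 96.3% and 5.15%. The changed genes all averaged 20 counts or more, all genes had the same dispersion, and far fewer genes changed than were called in the data. CXCL10, CXCL11 and CCL5, with 80, 139 and 112 counts over the 9 libraries, averaged less, so these rates do not cover them. Pairs of libraries within a group had a chi-square per degree of freedom of 6.4 to 26.14, so none was a copy. Alternatives were voom and limma, DESeq2 1.42.0, DESeq2's size factors, library size alone, no filter, a filter at 10 counts on average, a fit restricted to the 6 libraries of a comparison, a replicate block, and leaving out each of the 9 libraries. Promoter windows came from RefSeq. Tables and plots were made in Python 3.11.15 with matplotlib 3.10.9, scipy 1.17.1, numpy 2.4.6 and pandas 2.3.3. Some results on single genes are omitted.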

Additional observations from a re-analysis of the deposited data

How the results depend on the processing

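Of 399 log2 fold changes of the chemokines recomputed under the alternatives, 373 kept their direction and their side of the threshold, and 11 moved past the threshold, 11 fell short of it and 4 changed sign. All 8 chemokines tested against control with decitabine were upregulated in every fit that tested them, beside 36.3% of all genes tested in the main fit. CCL20, CXCL10, CXCL11 and CCL5 passed the main filter only through treated libraries, so a rise was close to a condition of their being tested. The number of chemokines downregulated between the treatments was 2. It was 1 with DESeq2, which gave no adjusted p for CXCL10, CXCL11 and CCL5, 4 without a filter and 5 with a replicate block, which called CXCL11 (-2.0, adjusted p = 0.0055), CCL20 (-0.56, adjusted p = 0.013) and CCL5 (-1.38, adjusted p = 0.031) as well, and it lay between 1 and 4 when 1 library was left out. The number of genes called between the treatments was 2908 and lay between 861 (combination replicate 2 left out) and 4063 (combination replicate 3 left out). Leaving out decitabine replicate 2 gave 1004, combination replicate 1 gave 1364 and decitabine replicate 1 gave 1783. The cause of these differences was not tested. Values that changed sign were all close to 0: CXCL2 with the combination treatment against control was -0.03 without control replicate 3 and -0.05 without combination replicate 3 (range -0.05 to 0.39), and CXCL8 between the treatments was -0.13 without decitabine replicate 1 and -0.05 without combination replicate 3 (range -0.13 to 0.4). The replicate numbers were not taken as pairs, since nothing in the labels ties same-numbered libraries together and their correlation was 0.233, 0.036 and 0.229 between decitabine and the combination treatment and -0.017 to 0.069 with the controls, although each decitabine and combination library correlated best with its own number within the other treatment. A filter of 10 counts on average left CXCL10 out, and the 6 libraries of control and combination treatment alone left out CXCL10, CXCL11 and CCL5, so these fits gave no value. Depth limits CXCL9 and CCL2, which had at most 5 counts in any library.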

Other observations

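Of 7 proteases that cut chemokines, 6 were tested, of which 2 were upregulated and 3 downregulated with each treatment. Over all genes tested, 36.3% were upregulated and 32.5% downregulated with decitabine and 35.9% and 31.3% with the combination treatment. DPP4, which removes the first residues of CXCL10 and CXCL11, had 3675, 3149 and 3253 counts in the controls, 2712, 2103 and 1612 with decitabine and 1903, 1764 and 1751 with the combination treatment. It was downregulated against the controls in both cases (log2 fold change -0.88 with adjusted p = 0.00054, and -1.09 with adjusted p = 0.00014, edgeR). ANPEP, an aminopeptidase that trims CXCL11, fell by 1.39 on the log2 scale with decitabine and by 1.79 with the combination treatment, and it was also lower between the treatments (log2 fold change -0.40, adjusted p = 0.024). MMP9, which cleaves CXCL8 into a more potent form, was upregulated by 4.55 and 4.38 (adjusted p = 0.0017 and 0.0023). With 3, 1 and 6 counts in the controls, MMP9 was tested only through its treated libraries. FURIN was upregulated by 0.67 and 0.71.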
